A study of Mus musculus with 20 samples.

Results

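Gfap, Vim, Nes and Synm, the genes for the intermediate filament proteins of astrocytes, were followed across 20 libraries of hippocampal polyadenylated RNA. They were chosen by name and make up 4 of the 24513 genes in the count files, and all 4 were among the 16657 genes with enough reads to be tested. The mice were male, 9 months old and of the strain labelled C57BL/6J, and 4 genotypes had 5 libraries each. The libraries labelled PS19/C3aR KO came from mice carrying both the PS19 transgene and the label for loss of C3aR. Libraries labelled PS19 came from mice with the transgene and without that label. The libraries labelled C3aR KO had that label alone, and the WT libraries neither. The PS19 transgene encodes a mutant form of human tau that causes frontotemporal dementia and is driven by the mouse prion protein promoter, which is active in neurons and in other brain cells. C3aR is the receptor for the complement fragment C3a and is encoded by C3ar1. Whether the 5 libraries of a genotype are 5 different mice is not stated in the labels, so the p-values rest on a spread that may be partly technical.

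Intermediate filaments are rope-like polymers that give cells mechanical strength. Glial fibrillary acidic protein (Gfap) is the filament protein by which astrocytes are usually recognised, and it polymerises alone or together with vimentin (Vim), a filament protein shared with endothelial, ependymal, microglial and fibroblast cells. Nestin (Nes) and synemin (Synm) cannot build filaments alone and are carried into filaments made by partners such as vimentin. Nestin is best known from neural stem and progenitor cells and from vessels, and synemin links filaments to adhesion and membrane complexes in muscle and astrocytes. In the injured or degenerating brain astrocytes enlarge and make more Gfap and vimentin, which is the classical sign of reactive gliosis.

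On GRCm38 (mm10), Gfap spans chr11:102887336-102897200 (minus strand) and Vim chr2:13574311-13582826 (plus strand). Nes spans chr3:87971093-87980451 (plus strand) and Synm chr7:67730161-67759742 (minus strand). The deposited counts are totals over the exons of a gene, so isoforms were not separated. In GENCODE vM21, 84 nt of Synm exon sequence overlap exons of Ttc23 on the opposite strand, and the strand setting of the count is not given in the sources used here.

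The 250 bases before the RefSeq start of each gene (GRCm38.p6) are shown because Gfap and Vim moved together in these data while Synm did not follow them. Each is written 5′ to 3′ on the strand of its gene. The windows are chr11:102897201-102897450 for Gfap, chr2:13574061-13574310 for Vim, chr3:87970843-87971092 for Nes and chr7:67759743-67759992 for Synm. Capitals mark matches to any of 5 motifs searched on both strands: the TATA box (TATAAA), the CCAAT box (CCAAT), the GC box (GGGCGG), a STAT site (TTCNNNGAA) and an AP-1 site (TGANTCA).
Gfap: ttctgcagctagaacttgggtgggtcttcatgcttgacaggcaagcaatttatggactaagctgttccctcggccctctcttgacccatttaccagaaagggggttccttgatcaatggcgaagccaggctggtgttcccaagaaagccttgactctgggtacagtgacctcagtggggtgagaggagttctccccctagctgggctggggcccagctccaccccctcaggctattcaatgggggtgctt
Vim: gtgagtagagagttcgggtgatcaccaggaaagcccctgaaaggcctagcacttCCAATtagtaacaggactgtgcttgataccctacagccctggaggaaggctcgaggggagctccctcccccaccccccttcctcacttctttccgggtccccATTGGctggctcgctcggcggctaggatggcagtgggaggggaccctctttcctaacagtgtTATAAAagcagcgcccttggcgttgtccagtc
Nes: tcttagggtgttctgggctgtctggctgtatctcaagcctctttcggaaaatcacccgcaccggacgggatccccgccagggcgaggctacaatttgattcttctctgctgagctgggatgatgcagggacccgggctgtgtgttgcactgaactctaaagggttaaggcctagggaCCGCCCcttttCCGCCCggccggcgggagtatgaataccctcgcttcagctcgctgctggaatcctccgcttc
Synm: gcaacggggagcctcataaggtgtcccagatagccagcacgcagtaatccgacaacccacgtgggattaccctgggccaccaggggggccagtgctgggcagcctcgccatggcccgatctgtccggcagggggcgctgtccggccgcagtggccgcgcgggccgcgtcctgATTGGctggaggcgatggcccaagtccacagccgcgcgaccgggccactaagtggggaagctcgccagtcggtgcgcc

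The Vim window held a TATA box from 32 to 27 bases before the start and a CCAAT box on either strand, the one on the opposite strand from 94 to 90 bases before the start. The Nes window held 2 GC boxes and the Synm window 1 CCAAT box, both kinds on the opposite strand, and no matches overlapped each other. The Gfap window held none of the 5 motifs. GENCODE vM21 places another Gfap transcript start 69 bases downstream of the RefSeq one, and the bases between these starts were not searched. For Vim it places starts 30 and 359 bases upstream, so 1 annotated start lies inside the Vim window, within the letters of its TATA box, and 1 lies upstream of the window. Other starts lie 36 bases downstream for Nes and 49, 58 and 19148 bases downstream for Synm. None of the windows held the STAT or AP-1 letters, which 7.02% and 6.75% of all 32851 windows of this length hold, against 12.4% for the TATA box, 33.8% for the CCAAT box and 32.7% for the GC box. The count of CpG dinucleotides was 2 for Gfap, 8 for Vim, 15 for Nes and 23 for Synm, beside a median of 6 over all windows. A match or its absence describes the letters of these windows and nothing more.

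Gene counts came to 33885800 to 47828100 per library. The targeted gene went against its label: C3ar1 had medians of 17.5 CPM in libraries labelled PS19/C3aR KO, 11.5 CPM in PS19, 16.1 CPM in libraries labelled C3aR KO and 2.10 CPM in WT, and every library of the other 3 genotypes lay above every WT library. Every direction below that involves the C3aR KO label is therefore one of libraries so labelled. Prnp, whose promoter drives the transgene, had 1828 to 2026 CPM in libraries labelled PS19/C3aR KO, 1837 to 1916 CPM in PS19, 825 to 871 CPM in libraries labelled C3aR KO and 824 to 949 CPM in WT, so no library with the transgene overlapped one without it. Ttr, the main transcript of choroid plexus epithelium, ranged from 9.53 to 4059 CPM over all libraries, and the ribosomal RNA precursor Rn45s took 0.873 to 4.48% of gene counts. CPM divide a count by the gene counts of its library, scaled by TMM factors of 0.959 to 1.04.

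Per kilobase of exon, Gfap was the most abundant of the 4 transcripts in every library and Nes the least. In WT, Gfap averaged 95.1 ± 19.2 CPM per kb, Synm 12.3 ± 1.94, Vim 9.31 ± 1.48 and Nes 2.05 ± 0.189 (SD, n = 5 each). Among 23384 genes with an exon length, the mean level per kb of Gfap ranked 53 in libraries labelled PS19/C3aR KO, 20 in PS19, 335 in libraries labelled C3aR KO and 328 in WT. On average, Synm stood above Vim in the genotypes without the transgene and below it in both genotypes with it: in PS19 Vim averaged 30.9 ± 11.5 CPM per kb and Synm 13.2 ± 1.64. These levels assume the GENCODE vM21 exons, since the annotation used for counting is not given in the sources used here.

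PS19 against WT compares libraries with and without the tau transgene, all without the C3aR label. These genotypes also differed in their share of Rn45s counts, given below, and the labels name no batch. A difference that goes with either cannot be told apart from one that goes with the transgene. Gfap, Vim and Nes rose and Synm did not pass the test. Gfap had 2451, 2025, 2636, 2728 and 897 CPM in PS19 libraries 1 to 5, against 415, 261, 423, 444 and 464 CPM in WT libraries 1 to 5. Every PS19 library stood above every WT library, and PS19 library 5 lay far below the other PS19 libraries. The log2 fold change of Gfap was 2.42 (SE 0.29, 95% interval 1.81 to 3.03, edgeR adjusted p = 0.000163), or 5.35-fold. It ranked 44 of 16657 genes when ordered from the largest rise to the largest fall.

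Vim had 155, 122, 194, 196 and 65.9 CPM in PS19 libraries 1 to 5, against 47.0, 35.1, 50.8, 38.4 and 49.6 CPM in WT libraries 1 to 5. The groups again did not overlap, with the same PS19 library lowest. The log2 fold change of Vim was 1.73 (SE 0.27, 95% interval 1.16 to 2.31, edgeR adjusted p = 0.000584), or 3.32-fold.

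Nes had 16.8, 12.7, 24.1, 21.3 and 15.6 CPM in PS19 libraries 1 to 5, against 14.8, 13.6, 12.6, 11.5 and 13.2 CPM in WT libraries 1 to 5. PS19 libraries 3 and 4 were the highest, and PS19 library 2 lay inside the WT range. Its log2 fold change of 0.46 (SE 0.14) passed narrowly (edgeR adjusted p = 0.0447). Leaving out 1 library ended the call in 13 of 20 cases, the adjusted p reaching 0.153 (log2 fold change 0.33) without PS19 library 3, and the call was also lost with the Rn45s share as a covariate (0.37, adjusted p = 0.283).

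Synm had 105, 96.4, 94.1, 101 and 127 CPM in PS19 libraries 1 to 5, against 111, 74.0, 109, 104 and 91.5 CPM in WT libraries 1 to 5. The groups overlapped, and PS19 library 5, lowest of its genotype for Gfap and Vim, was the highest for Synm. Synm had a log2 fold change of 0.096 (SE 0.12, 95% interval -0.16 to 0.35, edgeR adjusted p = 0.699). So 3 of the 4 genes were called higher in PS19, where 7.5% of all tested genes were, and 2 of 4 had all PS19 libraries above all WT libraries, as 5.93% of genes did. The median over all tested genes was -0.0068. Rn45s took 3.65% of the counts of PS19 library 5 and 0.873 to 1.77% of those of PS19 libraries 1 to 4, while WT libraries had 2.85 to 4.48%. With that share as a covariate Gfap kept a log2 fold change of 2.25 (adjusted p = 0.0074) and Vim 1.58 (adjusted p = 0.0187), while Synm moved to 0.28 (unadjusted p = 0.0406, adjusted p = 0.275). In bulk tissue a larger number of cells and more RNA per cell cannot be told apart.

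**Figure D1:**
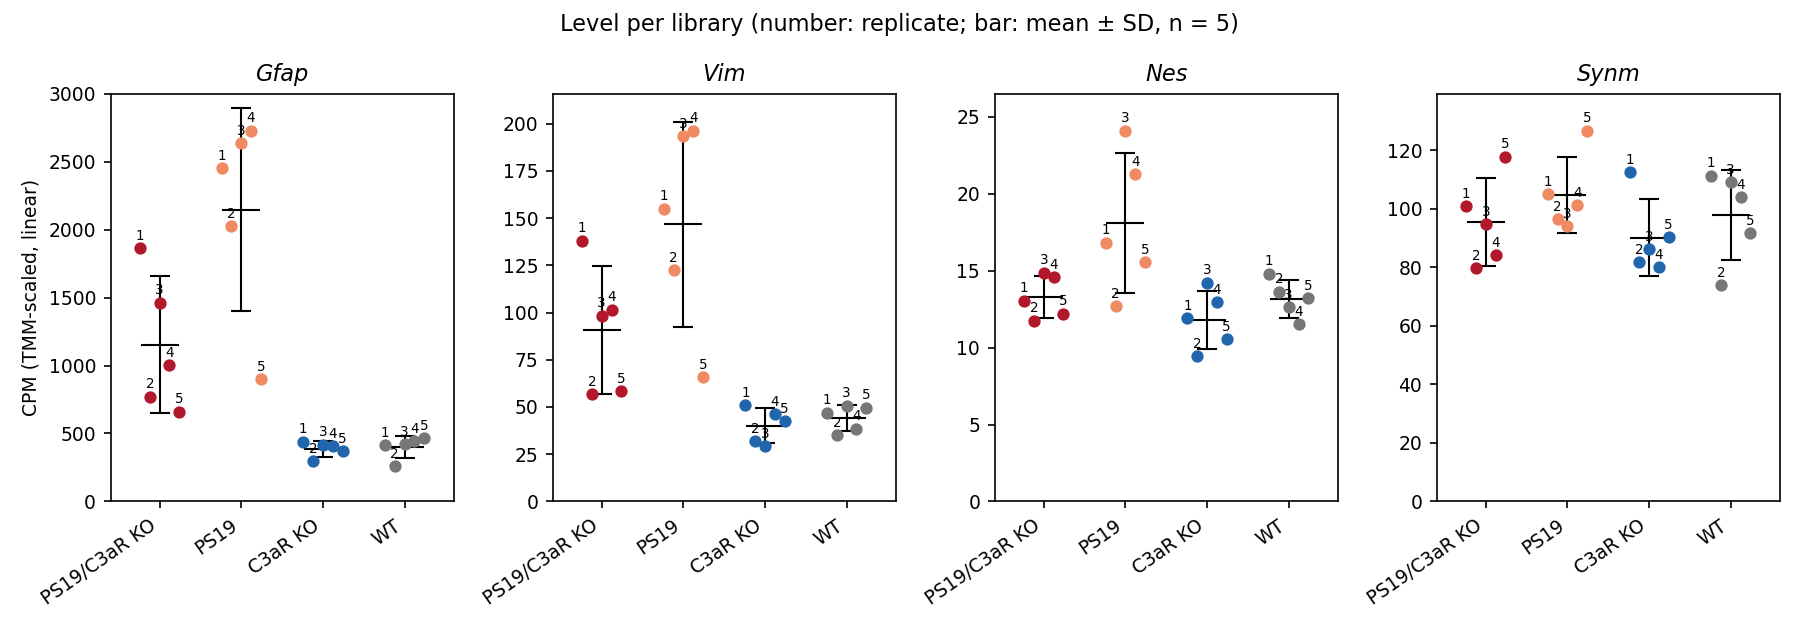
Level of Gfap, Vim, Nes and Synm in each of 20 libraries, in CPM on linear axes that start at 0, with genotypes along the x axis. Points are libraries with their replicate number and bars are the mean ± SD (n = 5). The Gfap and Vim levels of both genotypes with the transgene lie above those of both genotypes without it, and the Synm levels overlap in all 4 genotypes.

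The comparison of libraries labelled PS19/C3aR KO with PS19 asks whether the C3aR label changes the state of the tau-transgenic hippocampus. All 4 genes had lower means in libraries labelled PS19/C3aR KO, and none passed the test. Gfap had 1864, 771, 1463, 1004 and 661 CPM in libraries 1 to 5 labelled PS19/C3aR KO, a mean of 1153 ± 503.1 CPM against 2147 ± 749 CPM in PS19 (SD, n = 5 each). The groups overlapped through PS19 library 5, whose 897 CPM lay below 3 of the libraries labelled PS19/C3aR KO. On the log2 scale the difference was -0.90 (SE 0.28, 95% interval -1.48 to -0.31, edgeR adjusted p = 0.141).

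Vim had 138, 56.8, 98.4, 102 and 58.5 CPM in libraries 1 to 5 labelled PS19/C3aR KO, which gave a log2 difference of -0.69 (SE 0.27) at an edgeR adjusted p of 0.229. Nes had 13.1, 11.8, 14.9, 14.6 and 12.2 CPM in the same libraries, a mean of 13.3 ± 1.39 CPM against 18.1 ± 4.57 CPM in PS19, with a log2 fold change of -0.44 (SE 0.14, adjusted p = 0.155). Nes in these libraries lay close to the WT mean of 13.2 ± 1.21 CPM. Synm had 101, 79.7, 94.8, 84.2 and 118 CPM, with a log2 fold change of -0.13 (SE 0.12, adjusted p = 0.668). Library 5 of the genotype, lowest for Gfap, was highest for Synm.

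By edgeR 0 of the 4 genes were called in this comparison, beside 0.252% of all tested genes, and 0 of 4 had groups that did not overlap, beside 2.59%. At an unadjusted p under 0.05 there were 3 lower, Gfap, Vim and Nes, beside 8.91% of all genes, and DESeq2 called 1 lower, Gfap, at an adjusted p of 0.0476, beside 1.86% of all genes. The DESeq2 fit was not repeated with a library left out. With 1 library left out of the edgeR fit, Gfap stayed uncalled in 18 of 20 cases, Vim in 19 and Nes in 20. The edgeR adjusted p reached 0.355 for Gfap and 0.517 for Vim without library 2 labelled PS19/C3aR KO. Without PS19 library 5 Gfap passed at -1.09 (adjusted p = 0.0196) and Vim at -0.88 (adjusted p = 0.048), and Gfap also passed without library 1 labelled PS19/C3aR KO (-1.14, adjusted p = 0.0481). Cryab, a small heat shock protein that chaperones Gfap and vimentin filaments, was the 1 gene of the filament-related lists called here. It fell by 0.62 on the log2 scale (SE 0.12, edgeR adjusted p = 0.0322), with 72.2 ± 10.6 CPM in libraries labelled PS19/C3aR KO and 111 ± 13.2 CPM in PS19 (SD, n = 5 each), and the groups did not overlap. Of 12 microglia markers 0 were called by edgeR, 11 were lower at an unadjusted p under 0.05 and 8 were lower by DESeq2, with sums of 425 to 711 CPM in libraries labelled PS19/C3aR KO and 497 to 1033 CPM in PS19. Of 16 astrocyte markers 0 were called by edgeR, 8 were lower at an unadjusted p under 0.05 and 2 were lower by DESeq2. Their part in the values of Gfap, Vim and Nes was not tested.

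The difference between transgenic and non-transgenic libraries with the C3aR label was read from those labelled PS19/C3aR KO against those labelled C3aR KO. Gfap had 439, 296, 419, 408 and 372 CPM in libraries 1 to 5 labelled C3aR KO. Every library labelled PS19/C3aR KO lay above all of these, and the log2 fold change was 1.58 (SE 0.28, 95% interval 0.98 to 2.17). This was the third smallest p of all genes, at an edgeR adjusted p of 0.0724, in a comparison where 0.006% of genes, a single gene, were called. Vim had 50.8, 31.8, 29.4, 46.2 and 42.5 CPM in libraries 1 to 5 labelled C3aR KO, again below every library labelled PS19/C3aR KO. The fitted log2 difference was 1.18 (SE 0.27), at an edgeR adjusted p of 0.108. Groups that did not overlap with the first above the second were found for 2 of the 4 genes and for 1.3% of all genes. Nes had a log2 fold change of 0.17 (SE 0.14, adjusted p = 0.798) and Synm of 0.082 (SE 0.12, adjusted p = 0.922), both with overlapping groups.

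By edgeR 0 of the 4 genes were called there, with 2 higher at an unadjusted p under 0.05, beside 5.97% of all genes. DESeq2 called the same 2, Gfap at an adjusted p of 7.24e-05 and Vim at 0.00333, beside 0.75% of all genes called higher, and called 158 genes in all against 1 by edgeR. Without PS19 library 5, which is in neither group of this comparison and enters through the common fit, edgeR gave Gfap an adjusted p of 0.0175 and Vim of 0.0311. Without library 2 labelled PS19/C3aR KO the adjusted p was 0.0239 for Gfap and 0.0452 for Vim, and without library 5 of that genotype it was 0.0303 for Gfap. Other omissions moved it the other way, up to 0.228 for Gfap without library 3 labelled C3aR KO and up to 0.383 for Vim without library 1 labelled PS19/C3aR KO.

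Set against WT, libraries labelled PS19/C3aR KO had Gfap higher by 1.52 on the log2 scale (SE 0.28, 95% interval 0.93 to 2.12, edgeR adjusted p = 0.0173), the 1 call among the 4 genes, where 0.588% of all genes were called higher. The call was lost without library 1 (1.28, adjusted p = 0.053) or library 3 (1.43, adjusted p = 0.0612) of the libraries labelled PS19/C3aR KO, with the Rn45s share in the model (1.43, adjusted p = 0.0739) and in the fit to these genotypes alone (1.52, adjusted p = 0.0594). Vim reached 1.04 (SE 0.27, adjusted p = 0.0666) and passed without PS19 library 5 (1.04, adjusted p = 0.0224) and without library 2 (1.17, adjusted p = 0.0374) or 5 (1.16, adjusted p = 0.0456) labelled PS19/C3aR KO. For both genes all libraries labelled PS19/C3aR KO lay above all WT libraries, as for 2.06% of all genes. Nes (0.015, SE 0.14, adjusted p = 0.979) and Synm (-0.037, SE 0.12, adjusted p = 0.927) showed no difference that this test could call.

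Without the transgene, libraries labelled C3aR KO and WT overlapped for all 4 genes. Rn45s took 0.923 to 4.34% of counts in libraries labelled C3aR KO (median 1.20%), against 2.85 to 4.48% in WT (median 3.61%). What goes with that share cannot be told apart from what goes with the label. The log2 fold change, labelled C3aR KO minus WT, was -0.054 for Gfap (95% interval -0.64 to 0.53, edgeR adjusted p = 0.986) and -0.14 for Vim (-0.70 to 0.43, adjusted p = 0.967). It was -0.16 for Nes (-0.46 to 0.14, adjusted p = 0.925) and -0.12 for Synm (-0.38 to 0.14, adjusted p = 0.934). By edgeR and by DESeq2 0 of the 4 were called, and 0 had an unadjusted p under 0.05. Of all genes 0.06% were called by edgeR, 0.348% by DESeq2 and 6% had an unadjusted p under 0.05, and 1.24% had groups that did not overlap.

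The transgenic minus non-transgenic difference with the C3aR label, less the same difference without it, was tested as an interaction. It was -0.84 for Gfap (SE 0.39, 95% interval -1.67 to -0.020, unadjusted p = 0.0453, edgeR adjusted p = 0.9995), -0.56 for Vim (SE 0.38), -0.29 for Nes (SE 0.20) and -0.014 for Synm (SE 0.17). Of the 4 genes 0 passed by edgeR or DESeq2, beside 0.012% of all genes by edgeR and 0.018% by DESeq2, and 1 was lower at an unadjusted p under 0.05, beside 2.91%. These comparisons share groups with each other, so their values are not independent. From highest to lowest mean level, the order for Gfap and Vim was PS19, PS19/C3aR KO, WT, C3aR KO. Of the steps between neighbours in that order, the one between PS19/C3aR KO and WT passed for Gfap in the edgeR fit to all libraries, with the exceptions given above, and no other step passed there for either gene.

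**Figure D2:**
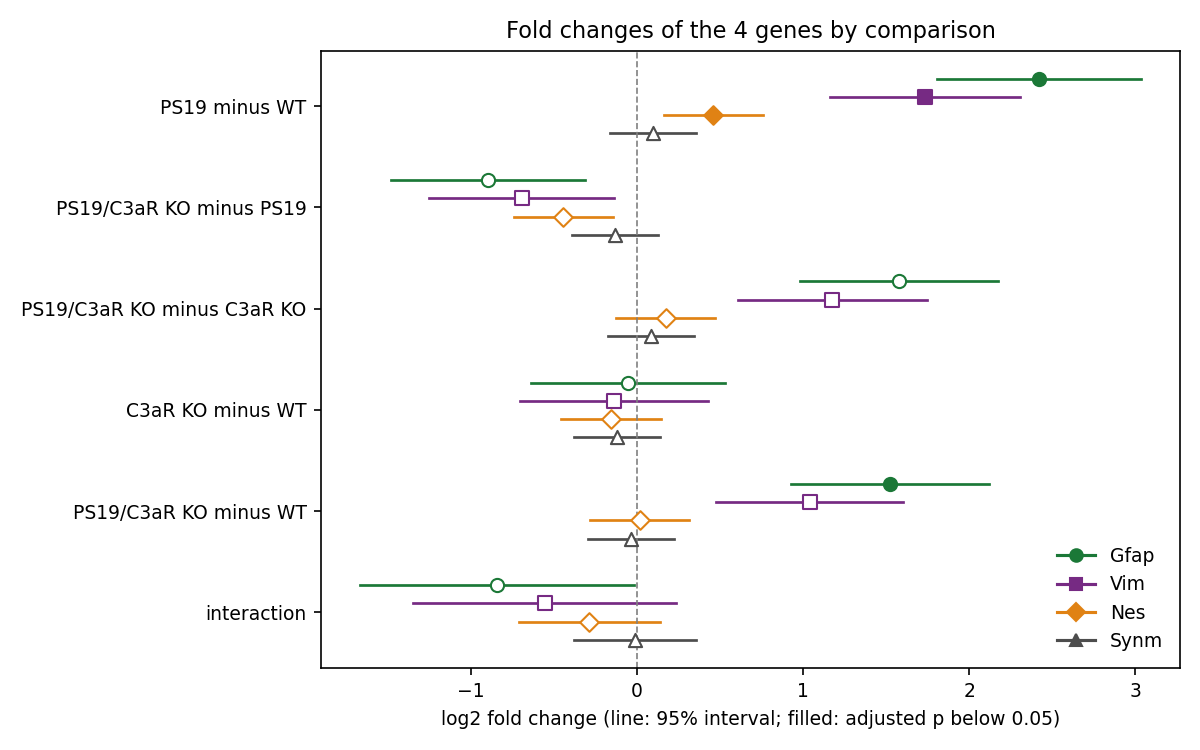
The log2 fold change of each gene (x axis) in 6 comparisons (y axis), with 95% intervals as lines and filled symbols where the edgeR adjusted p was below 0.05. Gfap and Vim lie to the right in the comparisons of transgenic with non-transgenic libraries, up to 2.42 for Gfap in PS19 minus WT, and Synm lies between -0.13 and 0.096 in all of them.

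The make-up of the 4 transcripts differed with the transgene. Gfap made up 84.4 to 91.0% of their summed CPM per kb in libraries labelled PS19/C3aR KO and 86.8 to 92.3% in PS19, against 79.1 to 83.8% in libraries labelled C3aR KO and 76.6 to 82.1% in WT. The Synm share was 2.62 to 7.99% in libraries labelled PS19/C3aR KO and 1.74 to 6.52% in PS19, against 8.50 to 11.6% in libraries labelled C3aR KO and 8.61 to 11.6% in WT. Neither share overlapped between libraries with and without the transgene. Both are parts of the same sum, mostly Gfap, so a higher Gfap level alone lowers the Synm share. The ratio of Gfap to Vim per kb had a median of 15.6 in PS19, against 9.92 in WT, and the lowest PS19 library (15.3) lay above every WT library. In libraries labelled PS19/C3aR KO it was 11.1 to 16.7, against 9.70 to 16.0 in libraries labelled C3aR KO, where library 3 was the highest. These shares are given as a description, without a test.

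**Figure D3:**
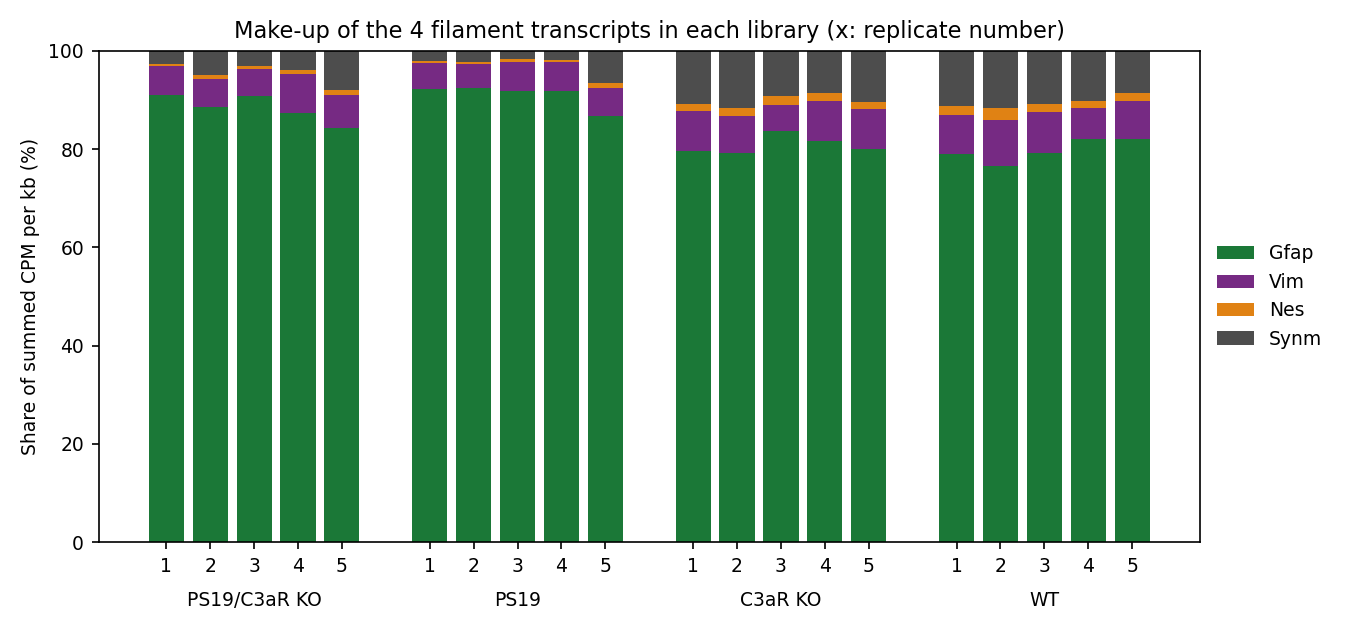
Share of each gene in the summed CPM per kb of the 4 genes (y axis, %), 1 bar per library, with replicate numbers on the x axis and genotypes below it. The Synm part is 8.50 to 11.6% in libraries without the transgene and 1.74 to 7.99% in libraries with it.

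Libraries of 1 genotype also differed among themselves, and over all 5 libraries the coefficients of variation of Gfap and Vim were largest in the genotypes with the transgene. The coefficient of variation of Gfap was 43.6% in libraries labelled PS19/C3aR KO and 34.9% in PS19, against 14.6% in libraries labelled C3aR KO and 20.1% in WT. For Vim it was 37.5% in libraries labelled PS19/C3aR KO and 37.1% in PS19, against 23.1% in libraries labelled C3aR KO and 15.9% in WT. Nes did not follow this pattern, with 10.4% in libraries labelled PS19/C3aR KO, 25.3% in PS19, 16.0% in libraries labelled C3aR KO and 9.23% in WT. For Synm it was 12.4 to 15.8%, lowest in PS19. The Gfap and Vim values of PS19 rested largely on library 5, which had 897 and 65.9 CPM. PS19 libraries 1 to 4 had 2025 to 2728 CPM of Gfap and 122 to 196 CPM of Vim. After the mean of each genotype was taken away, the log2 CPM of Gfap and Vim varied together over the 20 libraries, with Pearson's r = 0.88 (permutation p = 0.00014, adjusted over 6 pairs 0.00084) and Spearman's rho = 0.75 (permutation p = 0.00181, adjusted 0.0109). The relation held without PS19 library 5 and library 5 labelled PS19/C3aR KO, the 2 farthest from the median (r = 0.79).

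The other 5 pairs did not pass the adjustment. Gfap with Nes had r = 0.42 (permutation p = 0.135, adjusted 0.270) and rho = 0.47 (p = 0.0477, adjusted 0.0953), and r = 0.37 without the same 2 libraries. Vim with Nes had r = 0.48 (permutation p = 0.0963, adjusted 0.270) and rho = 0.50 (p = 0.0446, adjusted 0.0953), and r = 0.42 without its 2 farthest libraries. Pairs with Synm had the smallest r. With Gfap it had r = -0.036 (permutation p = 0.886, adjusted 0.886) and rho = 0.11 (p = 0.658, adjusted 0.790), and r = 0.55 without the 2 libraries numbered 5, so that pair rests on those 2 libraries. With Vim it had r = -0.049 (permutation p = 0.840, adjusted 0.886) and rho = 0.0030 (p = 0.993, adjusted 0.993), and with Nes r = -0.13 (permutation p = 0.589, adjusted 0.883) and rho = -0.16 (p = 0.497, adjusted 0.746). Without the 2 libraries farthest on the x axis these were 0.072 and -0.16. The tests were two-sided, with 100000 permutations within genotypes.

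**Figure D4:**
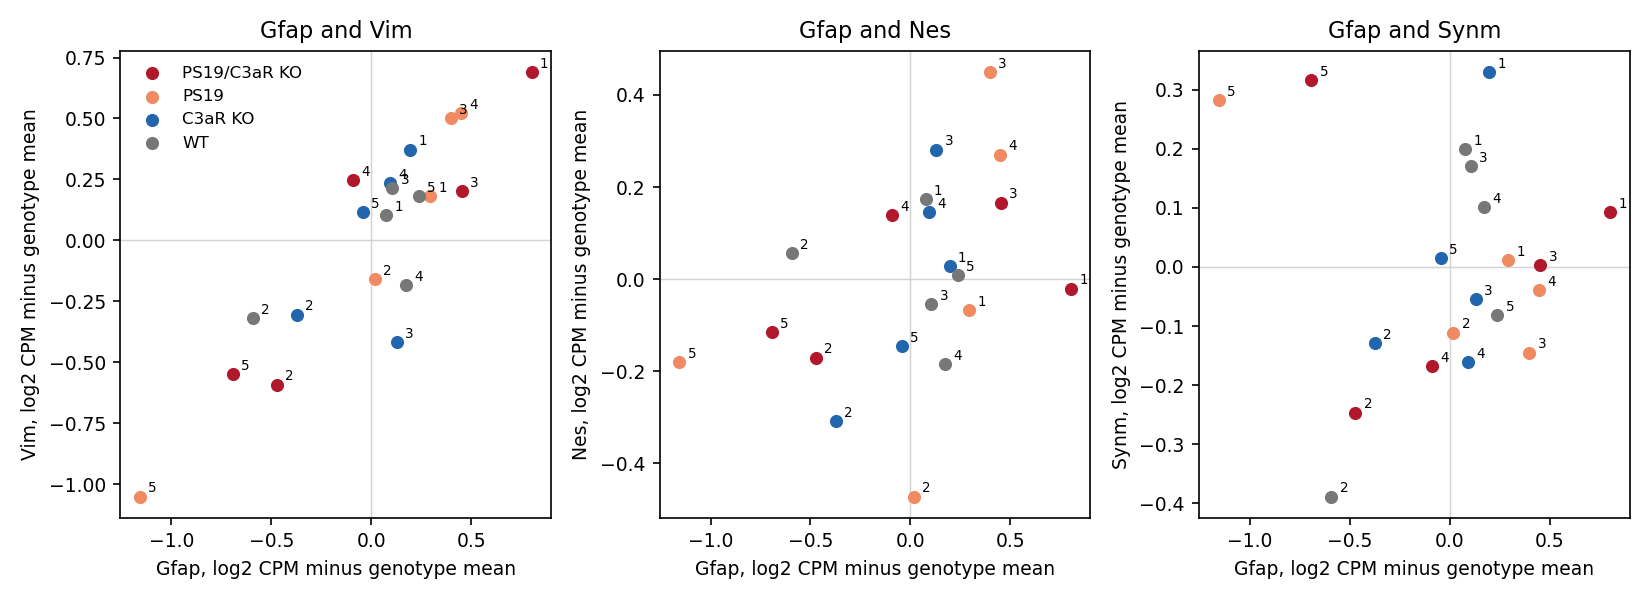
Deviation of Gfap from its genotype mean (x axis, log2 CPM) against that of Vim, Nes and Synm (y axes, log2 CPM), 1 point per library with its replicate number and colours for genotypes. Gfap and Vim fall along a line (r = 0.88), and in the Synm panel the 2 transgenic libraries numbered 5 lie at the upper left.

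The genes whose log2 CPM followed each member most closely over the 20 libraries were sought among 12823 others. For Gfap they were the complement component C4b (Pearson's r = 0.983), Arpc1b, which encodes a subunit of the actin-nucleating Arp2/3 complex (0.979), the myosin gene Myo1f (0.979), the transcription factor Runx1 (0.978) and the urea transporter Slc14a1 (0.978). For Vim they were the chemokine Cxcl16 (0.980), the sphingosine-1-phosphate receptor S1pr3 (0.979), the tumour necrosis factor receptor Tnfrsf1a (0.978), the actin-capping protein Capg (0.978) and the calponin Cnn3 (0.973). Vim ranked 17 among the genes most like Gfap (0.969), and Gfap ranked 9 among those most like Vim. These r values include the differences between genotypes. Among deviations from genotype means they were 0.897 to 0.939 for the genes beside Gfap and 0.913 to 0.944 for those beside Vim.

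Nes and Synm had other neighbours. For Nes they were the ephrin receptor Ephb1 (0.897), the tropomyosin Tpm4 (0.873), Rcsd1 (0.871), the glial adhesion molecule Hepacam (0.871) and the guanine nucleotide exchange factor Dock1 (0.864). For Synm they were Ccdc40 (0.853), Adgrv1 (0.848), Cfap43 (0.847), Adamtsl1 (0.845) and Ak7 (0.843), of which Ccdc40, Cfap43 and Ak7 are genes of motile cilia, found in the ependyma that lines the ventricles. Their r was 0.817 to 0.842 among deviations from genotype means. The summed level of ependymal markers had a median of 29.6 CPM in libraries labelled PS19/C3aR KO (highest 77.0), 47.5 CPM in PS19 (highest 79.5), 22.3 CPM in libraries labelled C3aR KO (highest 42.8) and 35.8 CPM in WT (highest 52.9). In the main fit of PS19 minus WT, Synm had a log2 fold change of 0.096 with an SE of 0.12. With the mean log2 CPM of those markers as a covariate, it had -0.038 with an SE of 0.075 (edgeR adjusted p = 0.807). This alternative was chosen after the data were seen. With the mean log2 CPM of choroid plexus markers instead, Synm had 0.027 with an SE of 0.089 (edgeR adjusted p = 0.890). The amount of ventricular lining in a dissection was not measured otherwise.

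Beyond the 4 genes, 2 other members of the filament family were called in PS19 minus WT, where 10.8% of all tested genes were. Of 28 other intermediate filament genes 26 were tested, with a median log2 fold change of 0.0043. Of these 1 rose, Bfsp2, a filament gene of the eye lens, by 1.02 (SE 0.23, edgeR adjusted p = 0.00649), with 4.62 ± 1.32 CPM in PS19 against 2.27 ± 0.41 CPM in WT. The keratin gene Krt2 fell by 0.83 on the log2 scale (SE 0.20, adjusted p = 0.0117), with 3.49 ± 1.17 CPM in PS19 against 6.19 ± 0.864 CPM in WT. Neurofilament light chain (Nefl) had -0.23 (SE 0.099) and did not pass. The epithelial keratins Krt8 and Krt18 had 1.24 (SE 0.88) and 1.05 (SE 0.87) and did not pass.

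Of 13 genes for linkers that tie filaments to other structures, 1 rose and 1 fell in PS19 (median 0.022). Of all tested genes 10.8% were called in either direction and 7.5% were called higher. Vcl, which encodes the adhesion protein vinculin, rose by 0.29 (SE 0.089, edgeR adjusted p = 0.0454), and Plec, the linker plectin, fell by 0.35 on the log2 scale (SE 0.097, adjusted p = 0.0233), with 313 ± 33.7 CPM in PS19 against 400 ± 44.9 CPM in WT. Of 15 tested chaperone and modifier genes 4 rose and 0 fell (median 0.013). Cryab rose by 0.77 (SE 0.12, adjusted p = 0.000473) and Padi2, an enzyme that citrullinates Gfap and vimentin, by 0.90 (SE 0.19, adjusted p = 0.00455). The protease subunit gene Capn2 rose by 0.24 (SE 0.052) and the kinase gene Rock1 by 0.21 (SE 0.064). Hspb1, the other filament chaperone, had 0.63 (SE 0.31) and did not pass.

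Of 22 genes for transcription factors and cofactors that act at filament genes, 5 rose and 0 fell (median 0.18). Sox9, which maintains astrocyte identity, rose by 0.65 (SE 0.13, edgeR adjusted p = 0.00309), and Stat3, the factor through which cytokines act on the Gfap promoter, by 0.64 (SE 0.11, adjusted p = 0.000856). Stat3 had 85.4 ± 14.1 CPM in PS19 against 54.9 ± 3.98 CPM in WT. The other 3 were Rela (0.35, SE 0.070), Rbpj (0.28, SE 0.059) and Pax6 (0.38, SE 0.10). In all, 10.8% of tested genes were called in this comparison. In fits that also held the Rn45s share, 1 of the other filament genes, 0 linkers, 2 chaperone and modifier genes and 1 regulator were called. Of all 16657 tested genes 476 were called with that share in the model, beside 1803 without it.

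Markers of the cell types that use these filaments were counted in the same comparison, where 10.8% of all tested genes were called and 7.5% were called higher. Of 16 astrocyte markers 8 rose (median 0.26), among them the water channel Aqp4 by 0.89 (SE 0.15, edgeR adjusted p = 0.0010) and S100b by 0.50 (SE 0.081, adjusted p = 0.000678), and 2 were called once the Rn45s share was in the model. Their summed level was 11000 to 14902 CPM in PS19 and 10134 to 10673 CPM in WT. All 12 microglia markers rose (median 1.12), with sums of 497 to 1033 CPM in PS19 and 361 to 397 CPM in WT, and 8 were called with that covariate. Among 13 tested markers of neural progenitors and newborn neurons 2 rose, the cell division genes Top2a (1.36, SE 0.29, adjusted p = 0.00525) and Cdk1 (1.21, SE 0.37, adjusted p = 0.0401). Without PS19 library 5 there were 4 higher and 1 lower. Both genes were low: Top2a averaged 2.29 CPM in PS19 against 0.891 CPM in WT. Cdk1 averaged 0.611 against 0.264 CPM, from 15 to 32 reads per library against 7 to 13. Mki67, also a cell division gene of this list, averaged 3.66 against 3.36 CPM and did not pass. The newborn neuron marker Dcx had -0.15 (SE 0.29) and did not pass. Of 10 neuron markers 3 fell (median -0.11): the glutamate transporter Slc17a7 by 0.30, Rbfox3 by 0.19 and Thy1 by 0.15 on the log2 scale. The progenitor count without PS19 library 5 and the counts with the Rn45s share were chosen after the data were seen. Over all tested genes 1803 were called in the main fit, 476 with the Rn45s share and 2240 without PS19 library 5.

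Vessel markers gave no call: of 12 endothelial and 12 mural cell markers 0 were called by edgeR, with 0 at an unadjusted p under 0.05 and 0 by DESeq2. Of all 16657 tested genes 1803 were called by edgeR and 2268 by DESeq2, and 4126 had an unadjusted edgeR p under 0.05. Endothelial markers summed to 214 to 312 CPM in PS19 and 232 to 268 CPM in WT (median log2 fold change 0.015), and mural cell markers to 237 to 341 CPM in PS19 and 237 to 298 CPM in WT (median 0.045). Of 10 ependymal markers 0 were called by edgeR or DESeq2 and 1 had an unadjusted p under 0.05 (median 0.595), and the fitted value was positive for all 10. Of 12 choroid plexus markers 0 were called by either tool or at an unadjusted p under 0.05 (median 1.02), and the fitted value was positive for all 12. The median over all tested genes was -0.0068, and the markers of 1 cell type are not independent of each other. The part of these cell types in the changes of Gfap, Vim and Nes was not tested beyond the covariate fits. Adjusted for the mean log2 CPM of the choroid plexus markers, Gfap had 2.40 (adjusted p = 0.000162) and Vim 1.71 (adjusted p = 0.000612).

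**Figure D5:**
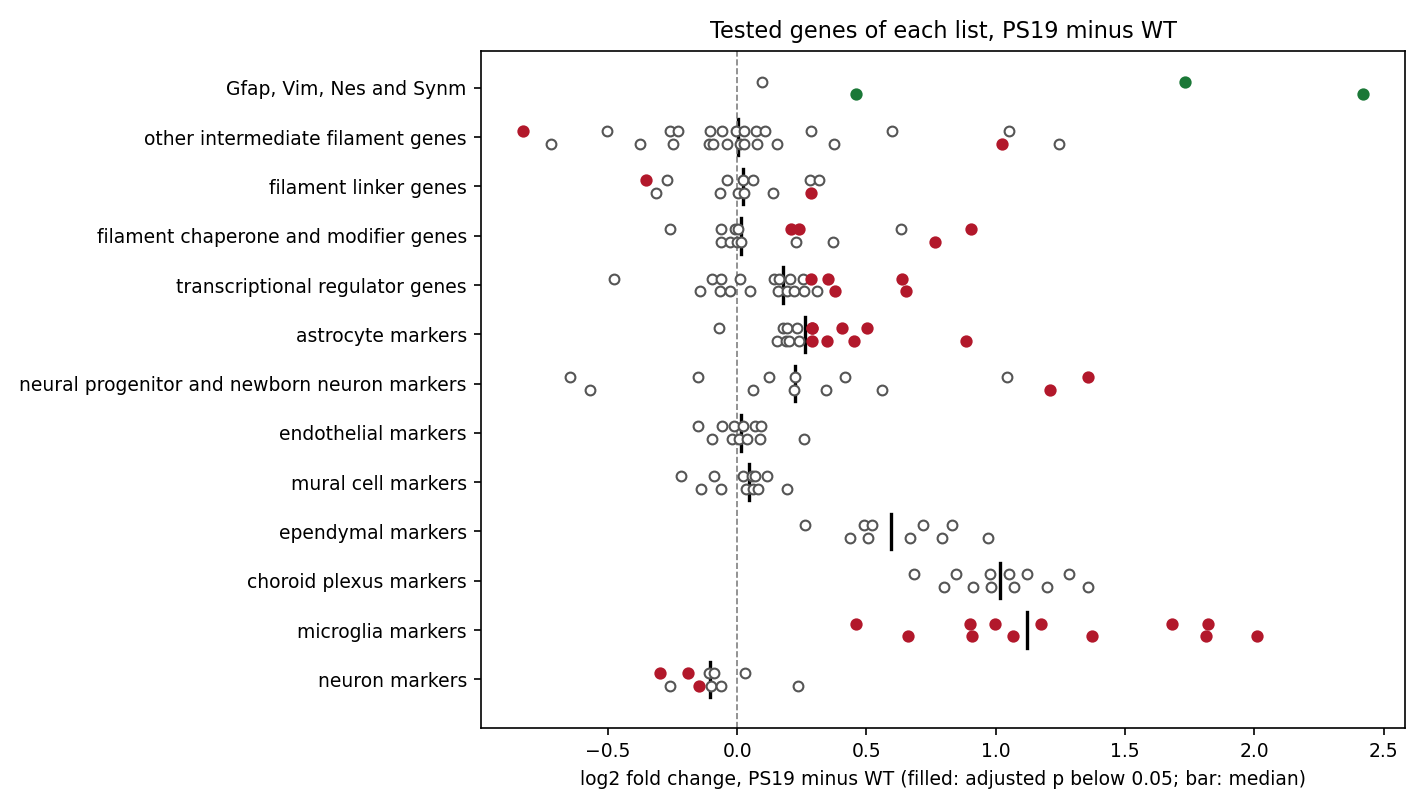
The log2 fold change in PS19 minus WT (x axis) of every tested gene in each list (rows), filled where the edgeR adjusted p was below 0.05, with the median of each list as a bar. Gfap and Vim lie to the right of every other filament gene at 2.42 and 1.73, the endothelial and mural markers cluster near 0, and all 12 microglia markers are filled.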

How the data were processed

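The authors deposited 1 file per library with counts of reads per gene as whole numbers, not normalized. Per the labels' protocols, TopHat 2.0.9 placed paired reads of 76 nt on mm10, and htseq-count summed them over the union of each gene's exons. The submitters' processing notes also name DESeq2, without a role. Neither the annotation release nor the strand setting is given in those sources.

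Library totals left out the 5 summary lines of each file, which name no gene. Of the sum of gene counts, counts outside genes and ambiguous counts, those outside genes were 17.4 to 25.4% and ambiguous ones 1.39 to 1.64%. All 20 libraries entered 1 quasi-likelihood model of edgeR 4.0.16 (R 4.3.3), with genotype as the only factor, TMM normalization and filterByExpr (minimum count 10, minimum total 15). A gene was called when its Benjamini-Hochberg adjusted p, over 16657 genes within a comparison, was below 0.05. Log2 CPM used a prior count of 2. In all 40 pairs of libraries of 1 genotype the counts differed by more than sampling noise (chi-square per degree of freedom 8.70 to 106), and no library was treated as a duplicate.

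The 4 genes, the 12 gene lists and the tests were chosen with earlier results of these data known. The text names the 4 members, the genes that check the labels, up to 4 called genes per list with the lowest p, and the 5 genes with the highest correlation with each member (predicted genes left out, mean log2 CPM 1 or more). Some uncalled list members, and called ones beyond the first 4, were named after their values were seen. Promoter sequences are from RefSeq (GRCm38.p6), matched by symbol for all 4 genes, and exon lengths from GENCODE vM21, matched for 95.4% of genes. The fit was tested on simulated data. Alternatives were other size factors, DESeq2 1.42.0, other filters, fits to the compared genotypes alone, a replicate block, covariates, and leaving out each library.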

Additional observations from a re-analysis of the deposited data

Results flagged for a closer look

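Gfap in WT library 2, at 261 CPM, stood apart from the other WT libraries: its gap to the next library was 0.757 of the whole range of the genotype, above the critical value of 0.71 for 5 libraries. The other WT libraries had 415 to 464 CPM. This was the 1 case among 16 combinations of gene and genotype examined, and chance gives about 1 in 20. The same library had 12.2 CPM of Ttr, the lowest of its genotype.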

How the results depend on the processing

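For the 4 genes, 192 values kept direction and call under other settings, while 8 turned sign, 7 became calls and 5 lost theirs. With 1 library left out, 438 kept both, while 16 turned sign, 11 became calls and 15 lost theirs. In PS19 minus WT, Gfap and Vim kept their calls in all settings, and Nes lost its call with no filter (0.46, adjusted p = 0.0536), in the fit to these genotypes alone (0.46, 0.0832) and with the share of Rn45s as covariate (0.37, 0.283). DESeq2 called Gfap in PS19/C3aR KO minus PS19 (-0.90), Gfap (1.57) and Vim (1.17) in PS19/C3aR KO minus C3aR KO, and Vim in PS19/C3aR KO minus WT (1.04, 0.0062). In PS19/C3aR KO minus WT, Gfap lost its call in the fit to these genotypes alone (1.52, 0.0594) and with the Rn45s share (1.43, 0.0739), and Vim passed with the choroid plexus score (1.04, 0.0499). Uncalled values near 0 changed sign. Synm did so with the Rn45s share in C3aR KO minus WT (0.066) and PS19/C3aR KO minus WT (0.084), with the choroid plexus score in the interaction (0.0081), and with the ependymal score in PS19 minus WT (-0.038), PS19/C3aR KO minus PS19 (0.035) and the interaction (0.078). Nes in PS19/C3aR KO minus WT turned to -0.042 with the Rn45s share. The cause of these changes was not tested.

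Same-numbered libraries were not taken as paired. Their deviations correlated at -0.27 to 0.55 over all pairs, and above 0.1 in 1 to 4 of 5 pairs for each combination of genotypes. The closest library of the other genotype carried the same number in 0 to 2 of 5 cases. These values do not settle whether some of the numbers are related. With the replicate block, Gfap passed in PS19/C3aR KO minus C3aR KO (1.503, adjusted p = 0.0201) and Vim in PS19/C3aR KO minus WT (0.96, 0.0456), Nes in PS19/C3aR KO minus WT turned to -0.0032, and no other call of the 4 genes changed.

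Leaving out 1 library gave 0.33 to 0.56 for Nes in PS19 minus WT, -1.14 to -0.75 for Gfap and -0.90 to -0.56 for Vim in PS19/C3aR KO minus PS19, and 1.33 to 1.72 for Gfap, 0.97 to 1.303 for Vim and -0.011 to 0.17 for Synm when PS19/C3aR KO was set against C3aR KO. It gave 1.28 to 1.67 for Gfap, 0.84 to 1.17 for Vim, -0.029 to 0.063 for Nes and -0.12 to 0.024 for Synm in PS19/C3aR KO minus WT, -0.17 to 0.035 for Gfap in C3aR KO minus WT and -0.10 to 0.074 for Synm in the interaction. The within-genotype r was -0.26 to 0.29 for Gfap with Synm and -0.18 to 0.25 for Vim with Synm, and 0.81 to 0.93 for Gfap with Vim.

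Counts of called genes moved more. In PS19 minus WT edgeR called 1803, and the fit with the Rn45s share 476, of which 475 were among the 1803. For PS19/C3aR KO minus PS19 edgeR called 42, DESeq2 439, the replicate block 212, the 2 genotypes alone 10, the Rn45s share 8 and the ependymal score 7. For PS19/C3aR KO minus C3aR KO these were 1 by edgeR, 158 by DESeq2 and 22 with the block. For C3aR KO minus WT they were 10 by edgeR, 58 by DESeq2, 5 for the genotypes alone, 4 with the Rn45s share and 17 with the ependymal score. For PS19/C3aR KO minus WT they were 179 by edgeR, 592 by DESeq2, 305 with the block, 43 for the genotypes alone, 32 with the Rn45s share, 393 with the choroid plexus score and 270 with the ependymal score. Leaving out 1 library gave 1190 to 2240 genes in PS19 minus WT and 6 to 481 in PS19/C3aR KO minus PS19.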
